A study of Mus musculus with 4 samples.

Results

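The TOX family of mouse has 4 genes, Tox, Tox2, Tox3 and Tox4, and all 4 were among the 32286 genes listed in single-cell RNA-seq libraries of Prss56-lineage cells sorted from the spine. The members were chosen with measured values of these cells in view, so the levels below are a description and carry no test. The members were counted in 1757 cells that passed the filters (over 750 UMIs, over 500 genes, under 7% mitochondrial UMIs), where a UMI is a molecular tag counted as 1 RNA molecule. Cells were grouped by fixed UMI rules rather than clusters. Endplate cells had at least 1 Sox9 UMI and at least 3 UMIs over Zfp804b and Dab1. Hypertrophic cells had at least 1 Sox9 UMI and at least 2 UMIs over Ihh, Panx3 and Prkg2. Other cartilage cells had Sox9 with at least 3 Acan UMIs and met neither of these rules. Bone/stroma cells had at most 2 Acan UMIs and at least 1 Runx2 UMI. Cells that met both the endplate and the hypertrophic rule were counted as hypertrophic.

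There were 4 libraries, 1 per condition, from vertebrae T11 to L2. Control libraries came from Prss56Cre/+;R26tdTom/tdTom;Nf1+/+ mice and mutant libraries from Prss56Cre/Cre;R26tdTom/tdTom;Nf1fl/fl mice, each at 3 months and at 12-16 months. Prss56 drives Cre in boundary cap cells, and all of the mice carried the tdTomato reporter. Floxed Nf1 is deleted in cells where Cre is active, and their descendants inherit the deletion whether or not they still express Prss56. The mutant libraries were homozygous for Cre and the control libraries heterozygous, so the number of Cre alleles and the Nf1 genotype cannot be told apart. The sources used here do not give the number of mice behind a library. With 1 library per condition there was no replicate and no test, and all intervals given are exact 95% intervals for counting error only (Poisson for levels, Clopper-Pearson for shares of cells, conditional binomial for ratios). They treat UMIs as independent, whereas Tox UMIs were clumped in single cells.

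The 4 libraries held 163 to 922 barcodes, of which 135 to 717 passed, with a median of 8189 to 12644 UMIs per cell, and no barcode was shared between libraries. Nf1 itself was counted at 131 CPM (UMIs of a gene per 1000000 UMIs of the cells summed, 124 to 139) in the 3-month control, 149.7 (141 to 159) in the 3-month mutant, 147 (131 to 164) in the 12-16-month control and 125 (115 to 136) in the 12-16-month mutant. It was therefore not lower under the mutant label at 3 months. Reads were taken from the 3′ end of the RNA, and where the floxed exons lie relative to the counted reads was not checked. Why the count was not lower was not tested. The libraries are called mutant and control by their labels throughout. The class names were checked against fixed markers, with all 10 chondrocyte markers detected in the hypertrophic cells of every library. Col10a1, the collagen of hypertrophic cartilage, was counted in the hypertrophic class at 2993 CPM in the 3-month control, 639.9 in the 3-month mutant and 2215 in the 12-16-month mutant, but was at 0 UMIs in the 15 hypertrophic cells of the 12-16-month control. Other cartilage also held Col10a1, in 98 of 511 cells of the 3-month control (133 CPM) and 19 of 203 of the 3-month mutant (49.3). At 12-16 months it was in 15 of 74 other cartilage cells of the control (59.2 CPM) and 53 of 196 of the mutant (151). In hypertrophic cells it was in 9 of 38 of the 3-month control, 22 of 136 of the 3-month mutant and 12 of 56 of the 12-16-month mutant. In the 12-16-month control this marker therefore does not bear out the class name. In the other libraries its CPM was higher in hypertrophic cells than in other cartilage, but most hypertrophic cells had no UMI of it. In the 12-16-month mutant the share of cells with it was higher in other cartilage. The endplate class of the 12-16-month control was a single cell, with 7 of the 10 chondrocyte markers at 0, and that of the 12-16-month mutant held 6 cells, so endplate levels are described at 3 months.

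TOX proteins are nuclear proteins that bind DNA through a single HMG box, a fold that recognises the shape of DNA more than its sequence. TOX is best known from T cells, where it is needed for the development of CD4 T cells and is induced through calcineurin and NFAT in exhausted T cells. TOX2 has been studied in lymphoid cells too, TOX3 in neurons and mammary epithelium, where it acts with CREB and CITED proteins, and TOX4 as a widely expressed subunit of the PTW/PP1 phosphatase complex on chromatin. In the growth plate and vertebral endplate, hypertrophic chondrocytes are the last stage of cartilage maturation before bone is laid down, and they express Ihh, a secreted hedgehog signal, and Col10a1.

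The family relation is visible in the coding sequence. The stretches below are 60 coding bases of the reference transcripts in which the 4 members are closely alike. They lie where the coding sequence enters the HMG box, and are shown because this box is what joins the 4 genes into a family. They are written 5′ to 3′ on the coding strand, with the 43 bases identical in all 4 members in capitals.
Tox: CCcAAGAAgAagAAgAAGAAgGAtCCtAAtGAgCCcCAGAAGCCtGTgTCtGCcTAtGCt
Tox2: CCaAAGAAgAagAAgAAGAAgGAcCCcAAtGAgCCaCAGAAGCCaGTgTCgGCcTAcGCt
Tox3: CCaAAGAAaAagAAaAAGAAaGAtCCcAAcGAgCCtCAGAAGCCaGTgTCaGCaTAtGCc
Tox4: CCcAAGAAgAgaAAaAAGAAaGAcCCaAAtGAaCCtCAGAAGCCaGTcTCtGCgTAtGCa

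Tox (ENSMUSG00000041272) lies on the minus strand at chr4:6686353-6991557 of GRCm38, and its stretch is in exon 5 of 9, at chr4:6722255-6722314. Tox2 (ENSMUSG00000074607) lies on the plus strand at chr2:163203125-163324170 with its stretch in exon 5 of 9, at chr2:163315846-163315905. Tox3 (ENSMUSG00000043668) lies on the minus strand at chr8:90247040-90348343 with its stretch in exon 5 of 7, at chr8:90254392-90254451. Tox4 (ENSMUSG00000016831) lies on the plus strand at chr14:52279146-52296401 with its stretch in exon 6 of 10, at chr14:52287355-52287414. Within the stretch Tox matched Tox2 at 53 of 60 bases, Tox3 at 49 and Tox4 at 48. Over the whole transcripts the longest run of identical bases that Tox shared with another member was 24 bases, with Tox3, and over the last 500 bases, where 3′ reads mostly fall, it was 12 bases, with Tox2. Tox4 overlaps Rab2b at its start and Mettl3 at its 3′ end, both on the other strand, and Tox overlaps the antisense gene Gm11802. Whether the counting used strand or intronic reads is not given in the sources used here. Gm11802 had 2 UMIs in the hypertrophic cells of the 3-month mutant and none in the other sums of the 4 classes.

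Tox was higher in hypertrophic, endplate and bone/stroma cells than in other cartilage at 3 months. Within hypertrophic and endplate cells it was higher under the mutant label at that age. In bone/stroma and other cartilage its CPM was also higher under the mutant label, with limits given below. Most bone/stroma Tox UMIs of the 3-month mutant were in cells with a blood marker, and other cartilage levels are not read as expression. In hypertrophic cells Tox had 35 UMIs in 38 cells of the 3-month control, which is 39.6 CPM (27.5 to 55.0). The 3-month mutant had 641 UMIs in 136 cells, or 214 CPM (198 to 232). The 12-16-month control had 7 UMIs in 15 cells, or 17.7 CPM (7.11 to 36.4), and the 12-16-month mutant 101 UMIs in 56 cells, or 89.3 CPM (72.7 to 108). Both mutant-labelled libraries lay above both control-labelled libraries in CPM, with intervals that treat clumped UMIs as independent. In the share of cells with a Tox UMI, given below, the interval of the 12-16-month mutant overlapped those of both controls.

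In endplate cells at 3 months, Tox had 8 UMIs in 14 cells of the control (42.4 CPM, 18.3 to 83.6) and 55 UMIs in 38 cells of the mutant (109 CPM, 82.2 to 142). The 12-16-month mutant had 2 UMIs in its 6 endplate cells and the single cell of the 12-16-month control had none. In other cartilage Tox was near the bottom of what could be counted, at 1.81 CPM (0.962 to 3.09) in the 3-month control, 8.51 (5.20 to 13.1) in the 3-month mutant, 2.19 (0.266 to 7.92) in the 12-16-month control and 1.20 (0.145 to 4.34) in the 12-16-month mutant. In bone/stroma cells the levels in the same order were 12.7 CPM (6.11 to 23.4), 136 (112 to 163), 5.63 (1.53 to 14.4) and 21.7 (13.4 to 33.1). The order of the classes was hypertrophic, bone/stroma, other cartilage in all 4 libraries, although hypertrophic and bone/stroma intervals overlapped in the 12-16-month control, as did those of bone/stroma and other cartilage.

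**Figure D1:**
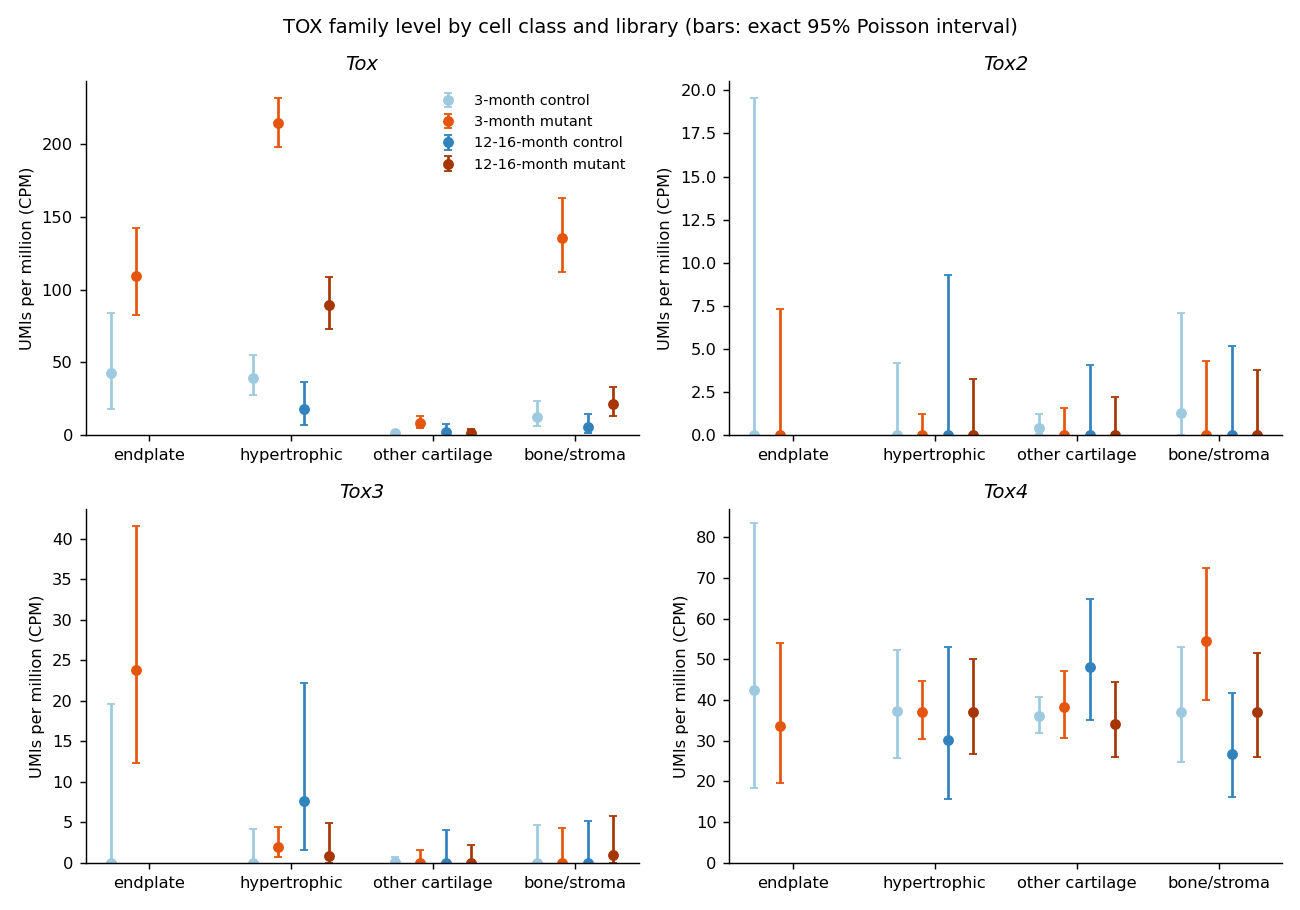
Level of each TOX family member in CPM (y axis) in 4 cell classes (x axis) and 4 libraries (colours), with exact 95% Poisson intervals as bars; endplate sums of the 12-16-month libraries (1 and 6 cells) are not drawn and each panel has its own scale. Tox reached 214 CPM in hypertrophic cells of the 3-month mutant and 1.20 to 8.51 CPM in other cartilage, whereas Tox4 lay between 26.7 and 54.5 CPM in every sum drawn.

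Within a library, Tox was 21.9-fold higher in hypertrophic cells than in other cartilage in the 3-month control (11.3 to 45.1), 25.2-fold in the 3-month mutant (16.2 to 41.6), 8.06-fold in the 12-16-month control (1.54 to 79.5) and 74.3-fold in the 12-16-month mutant (20.1 to 622). The older control value rested on 7 against 2 UMIs and the older mutant value on 101 against 2, and without the cell with the most Tox UMIs in each sum the latter moved from 6.22 to 6.90 on the log2 scale. Endplate cells were 23.5-fold above other cartilage in the 3-month control (8.43 to 61.1) and 12.8-fold in the 3-month mutant (7.57 to 22.6). Of all genes with at least 20 UMIs over the 2 sums in each library, 5.18% (395 of 7628) were at least 2-fold higher in hypertrophic cells in all 4 libraries. Tox was short of that minimum in the 12-16-month control. In the 3 libraries where it met the minimum it was past the fold in each, as were 6.70% of genes (654 of 9757). These 3 libraries were picked by the counts of Tox itself, which came mostly from hypertrophic cells. The place of Tox beside the 6.70% is therefore a description and not support.

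The share of cells with a Tox UMI followed the same order. In hypertrophic cells it was 31.6% (12 of 38, 17.5 to 48.7) in the 3-month control, 61.8% (84 of 136, 53.0 to 70.0) in the 3-month mutant, 20.0% (3 of 15, 4.33 to 48.1) in the 12-16-month control and 33.9% (19 of 56, 21.8 to 47.8) in the 12-16-month mutant. Median depth in these cells was 19802 to 27015 UMIs, against 7166 to 12374 in other cartilage, so each cell was also thinned to 5000 UMIs. The thinned shares in hypertrophic cells were 15.0%, 43.8%, 8.70% and 20.7% in the same order, with 3, 1, 1 and 1 shallower cells left out. In other cartilage they were 0.912%, 3.33%, 0.522% and 0.573%, with 24, 6, 7 and 47 cells left out, and the unthinned shares there were 2.54%, 4.43%, 1.35% and 1.02%. Cells outside the 4 classes with at least 5 UMIs of Acta2, a smooth muscle gene, served as a level for RNA free in the droplets. None of 47 such cells over the 4 libraries had a Tox UMI, at a median depth of 10162 UMIs. Taking 3 cells for the 0 gives a limit of 6.38%, which is not an exact interval like those of the other shares. The 47 cells numbered 8, 18, 2 and 19 by library, in the same order as above, so the limit is one for the pooled cells and not for each library. The hypertrophic shares were above it, unthinned and thinned, but the interval of the 12-16-month control (4.33 to 48.1) includes it and only 2 of the cells came from that library. The other cartilage shares were below the limit and are not read as expression. Because the limit is set by the number of Acta2 cells, it does not show that Tox was absent there either. In the 3-month mutant 9 of 203 other cartilage cells had Tox, with 20 UMIs.

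Tox UMIs were spread unevenly over cells. In the 3-month mutant, 66 of 136 hypertrophic cells had 3 or more Tox UMIs, 25 had 10 or more and the highest had 39, and that cell held 6.08% of the UMIs of the class. In the 3-month control 4 of 38 hypertrophic cells had 3 or more, and the highest, with 12 UMIs, held 34.3% of the class total. In the 12-16-month control 1 cell with 4 UMIs held 57.1%, and in the 12-16-month mutant 1 cell with 20 UMIs held 19.8%. The control levels therefore rested on a few cells, while in the 3-month mutant many cells contributed.

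**Figure D2:**
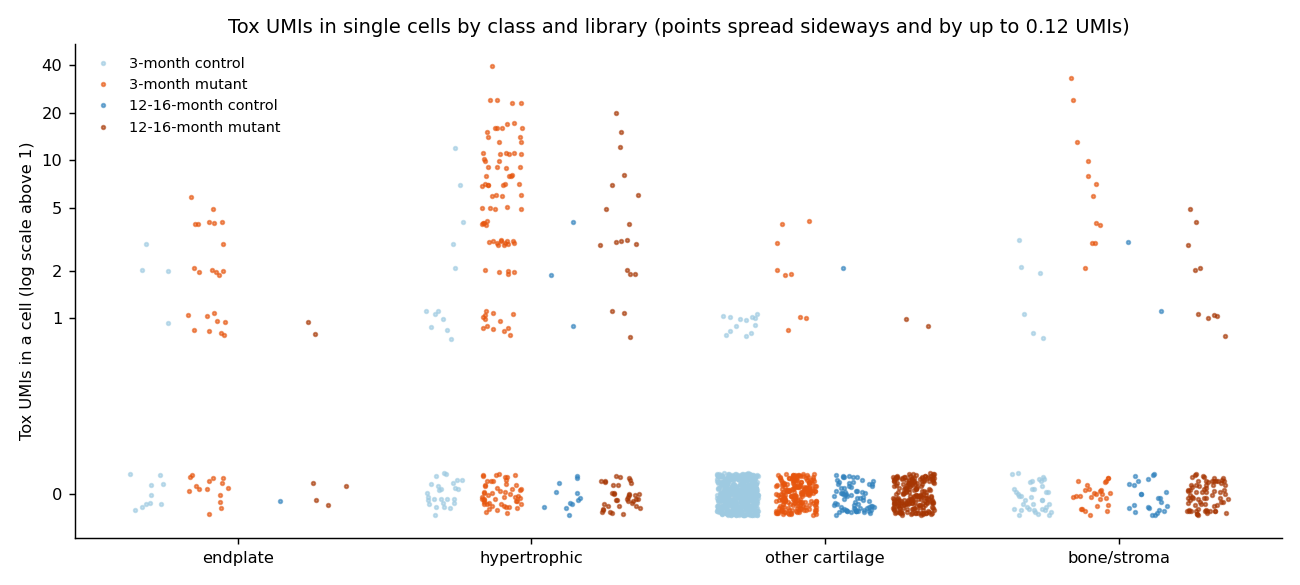
Tox UMIs in each cell (y axis, logarithmic above 1) by class (x axis) and library (colour), 1 point per cell, with points shifted slightly so that they do not hide each other. In hypertrophic cells the 3-month mutant reached 39 UMIs and the 12-16-month mutant 20, against 12 and 4 in the controls, and other cartilage cells held at most 4.

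Levels around the thresholds of the rules were as follows. Among cells of the 3-month mutant with Sox9 and at least 3 Acan UMIs, Tox was 19.2 CPM (14.2 to 25.4) with 0 UMIs over Ihh, Panx3 and Prkg2, 85.0 (55.5 to 125) with 1, 80.3 (56.2 to 111) with 2 to 3, 61.1 (44.2 to 82.2) with 4 to 9 and 306 (281 to 332) with 10 or more. In the 3-month control the same steps were 2.50, 17.9, 25.7, 18.4 and 47.1 CPM, and in the 12-16-month mutant 2.42, 0, 0, 21.1 and 115 CPM. In the 3 libraries the highest step was the last. For the endplate rule, cells of the 3-month mutant outside the hypertrophic rule had 8.68 CPM with 0 UMIs over Zfp804b and Dab1 (199 cells), no Tox UMI with 1 to 2 (4 cells), 48.6 with 3 to 5 (4 cells) and 118 (87.9 to 154) with 6 or more (34 cells).

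The cells that met either rule were also split into 3 sets, which the endplate and hypertrophy genes define. In the 3-month mutant Tox was 334 CPM (293 to 379) in the 32 cells that met the hypertrophic rule alone, 177 (160 to 195) in the 104 that met both and 109 (82.2 to 142) in the 38 that met the endplate rule alone. Cells with the hypertrophic rule alone were 1.88-fold (1.60 to 2.22) above those with both rules in that library, 3.81-fold (1.63 to 10.3) in the 3-month control and 2.13-fold (1.41 to 3.25) in the 12-16-month mutant. In the 12-16-month control the ratio was 1.54 (0.147 to 9.40), on 2 against 5 UMIs, and could not be told from 1.

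Tox was higher in cells with an Ihh or Panx3 UMI than in those without in all 4 libraries, but this was not so for every hypertrophy gene. Ihh, Panx3 and Prkg2 chose the hypertrophic class, so the split was made over all cells that met either rule and is a description. With an Ihh UMI against without, Tox was 65.8 against 23.1 CPM in the 3-month control (2.85-fold, 1.47 to 5.73). In the 3-month mutant it was 358 against 112 CPM (3.21-fold, 2.74 to 3.76), and in the 12-16-month mutant 185 against 42.2 CPM (4.39-fold, 2.88 to 6.81). The 12-16-month control had 6 UMIs in 3 Ihh cells and 1 UMI in 13 cells without. At 3 months cells with Ihh were deeper, at a median of 26567 against 16978 UMIs in the control and 23675 against 16838 in the mutant. In the 12-16-month control they were shallower, at 22117 against 27015. Thinned to 5000 UMIs, the shares with Tox at 3 months were 25.4% against 11.7% in the control and 69.8% against 30.2% in the mutant. Panx3, a channel protein of hypertrophic chondrocytes, split Tox similarly, at 352 against 96.3 CPM in the 3-month mutant and 180 against 44.6 CPM in the 12-16-month mutant. Prkg2, a protein kinase and the third gene of the rule, went the other way in the 3-month control, at 38.7 against 53.9 CPM (ratio 0.719, 0.283 to 2.34, which includes 1). With Prkg2 the ratio was 1.58 (1.12 to 2.32) in the 3-month mutant and 1.71 (0.460 to 14.3) in the 12-16-month mutant, the latter with only 4 cells without Prkg2. Pth1r, a receptor for parathyroid hormone and its related peptide, was missing from only 6, 6, 0 and 2 cells by library and gave no usable split. Sp7, the osteoblast factor that hypertrophic cells also express, gave 257 against 106 CPM in the 3-month mutant (2.42-fold, 2.01 to 2.92), and in the 12-16-month mutant 95.3 against 54.8 CPM (1.74-fold, 0.998 to 3.24, which includes 1). Col10a1, which the rule did not use, gave 346 against 175 CPM in the 3-month mutant (1.97-fold, 1.65 to 2.35), 178 against 60.1 in the 12-16-month mutant (2.96-fold, 1.96 to 4.44) and 59.1 against 34.7 in the 3-month control (1.71-fold, 0.833 to 3.33, which includes 1).

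Kcnd2, a potassium channel listed as an endplate marker that the rule did not use either, went the other way in the 3-month mutant. It was higher in endplate than in hypertrophic cells at 3 months, at 169.7 against 18.1 CPM in the control and 1038 against 156 CPM in the mutant. In the 12-16-month mutant it was at 0 UMIs in the 6 endplate cells (upper limit 56.5 CPM) and at 829.9 CPM in hypertrophic cells. Among cells of either rule in the 3-month mutant, Tox was 91.4 CPM (66.9 to 122) in the 28 cells with a Kcnd2 UMI. It was 217 CPM in the 146 without, a ratio of 0.420 (0.305 to 0.567). In the 3-month control the ratio was 0.738 (0.255 to 1.76) and in the 12-16-month mutant 0.875 (0.573 to 1.32), both with intervals that include 1. Tox4, split by Ihh in the same cells, had ratios of 1.19 (0.607 to 2.31) in the 3-month control and 1.02 (0.696 to 1.48) in the 3-month mutant.

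**Figure D3:**
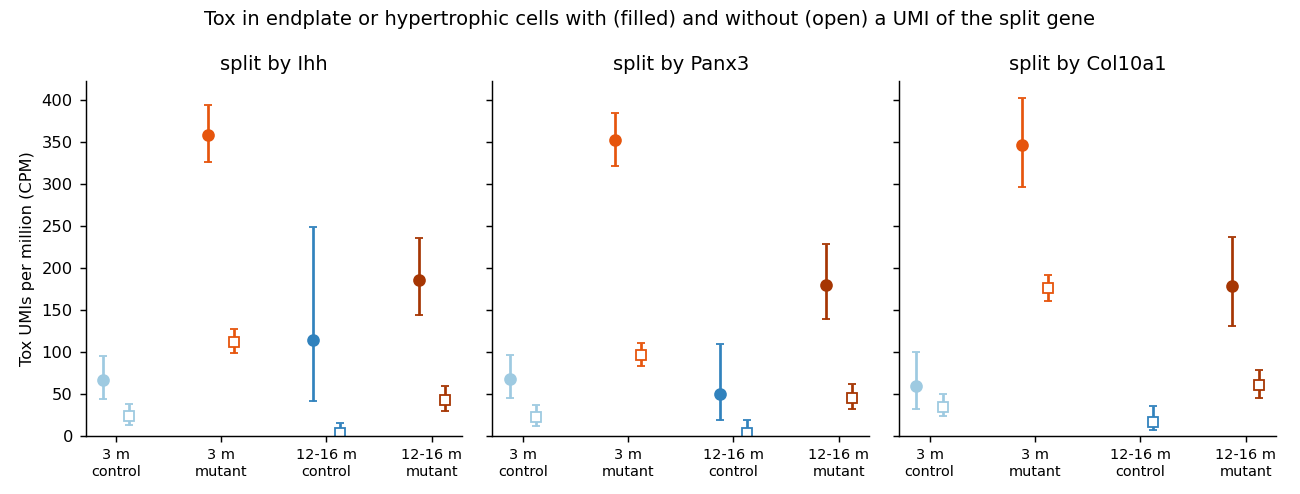
Tox level (y axis, CPM, exact 95% Poisson intervals) in cells that met the endplate or the hypertrophic rule, with (filled circles) and without (open squares) a UMI of Ihh, Panx3 or Col10a1, by library (x axis). The filled circle is above the open square wherever both are drawn, for example 358 against 112 CPM for Ihh in the 3-month mutant, and no hypertrophic or endplate cell of the 12-16-month control had Col10a1.

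The comparison of labels addressed what differs between control and Nf1fl/fl cells of the lineage. Over all passing cells Tox was 7.21 CPM in the 3-month control and 121 in the 3-month mutant, a ratio of 16.8 (13.1 to 21.8), but the mix of classes differed, since endplate and hypertrophic cells made up 7.25% of passing cells in that control and 36.0% in that mutant. Within hypertrophic cells Tox was 5.42-fold higher under the mutant label at 3 months (3.86 to 7.85). In the older libraries it was 5.05-fold higher (2.36 to 12.9). On the log2 scale these are 2.44 and 2.34, and without the cell with the most Tox UMIs in each sum they became 2.86 and 3.18, the latter on 81 against 3 UMIs. The mix within the hypertrophic class differed too. Cells that met both rules were 16 of 38 in the 3-month control and 104 of 136 in the 3-month mutant. At 12-16 months they were 11 of 15 and 32 of 56. The part of this mix in the Tox ratios was not tested. Of all genes tested in these sums (at least 20 UMIs), 37.6% were at least 1.5-fold apart in either direction at 3 months and 33.1% at 12-16 months, so a 1.5-fold difference was common between the libraries. Among genes spanning 100 kb or more, as Tox does, the shares were 41.9% and 34.0%. A count at least 2-fold higher under the mutant label at both ages was seen for 0.740% of genes (60 of 8104) and for 1.74% of the long genes (24 of 1381), and Tox was in both sets. Tox was chosen with earlier results of these data known, so its place in these sets is a description. At 12-16 months it met the minimum of 20 UMIs through the mutant sum, with 101 against 7 UMIs.

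Ranked by the smaller of the 2 log2 ratios (with 0.5 UMIs added to each sum), Tox stood 5th of 8104, with 2.42 at 3 months and 2.24 at 12-16 months. The genes above it, named after their values were seen, were Cadm1, a cell adhesion molecule, Kcnd2, Mamdc2 and Robo2, a guidance receptor. Kcnd2 had log2 ratios of 3.07 and 2.76. Cadm1, Mamdc2 and Robo2 had 0 to 6 UMIs in the control sums, against 35 and 7 for Tox. Since Tox was chosen with earlier results of these data known, its rank is a description.

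**Figure D4:**
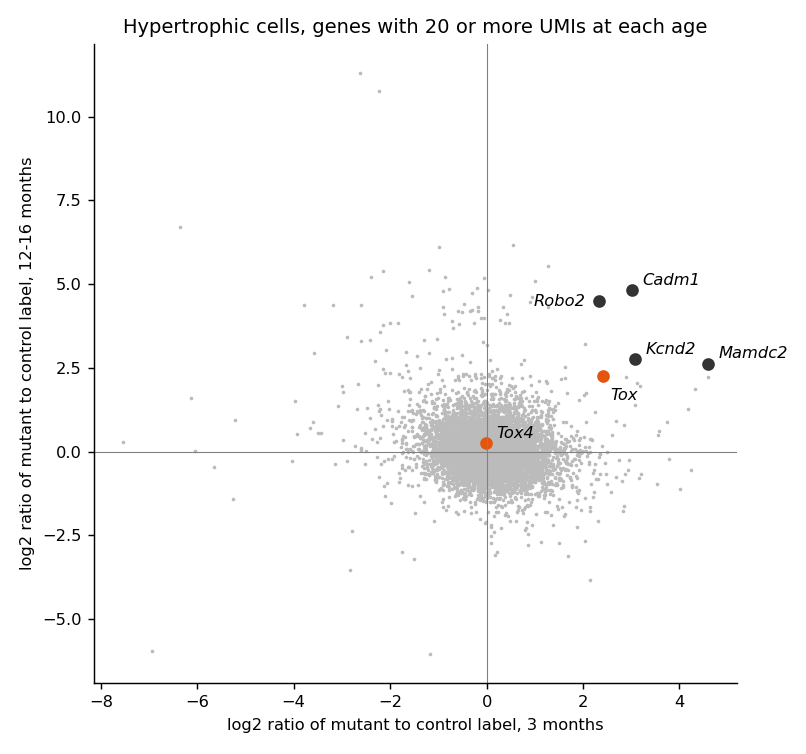
Log2 ratio of mutant to control label in hypertrophic cells at 3 months (x axis) and 12-16 months (y axis) for 8104 genes with at least 20 UMIs at each age, 1 grey point per gene. Tox lies at 2.42 and 2.24, near Kcnd2, while Tox4 lies near 0 on both axes.

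At 3 months the ratio was similar in cells with and without Ihh or Col10a1, whereas the older values were spread more widely. At 3 months, among cells of either rule with an Ihh UMI, the mutant label was 5.44-fold (3.71 to 8.29) above the control, and among those without it 4.83-fold (2.87 to 8.76). The share of cells with an Ihh UMI was 15 of 52 in the control and 53 of 174 in the mutant at 3 months, and 3 of 16 and 18 of 62 at 12-16 months. The level of Ihh itself in hypertrophic cells moved between labels, from 496 CPM in the control to 200.7 in the mutant at 3 months, and from 20.2 (8.72 to 39.8) to 216 CPM (189 to 244) at 12-16 months. At the older age it thus moved in the same direction as Tox, and its part in the Tox ratio was not tested. At 12-16 months the ratio was 1.62 (0.709 to 4.58) among cells with Ihh, on 68 against 6 UMIs, and 15.3 (2.57 to 620) among those without, on 35 against 1. The intervals of these older ratios overlap, and whether the ratio differs between cells with and without Ihh was not tested. With Col10a1 the 3-month ratio was 5.85 (3.39 to 10.9) and without it 5.06 (3.48 to 7.63). For cells of either rule as 1 group, the ratio was 4.97 (3.65 to 6.94) at 3 months, where 35.4% of genes were at least 1.5-fold apart, and 5.10 (2.39 to 13.0) at 12-16 months, where the share was 33.1%.

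In endplate cells at 3 months Tox was 2.57-fold (1.22 to 6.26) higher under the mutant label, in a comparison in which 41.0% of genes were at least 1.5-fold apart. When the cells that met both rules were counted as endplate instead, the log2 ratio moved from 1.36 to 2.77. The genes of the endplate rule moved with the label in endplate cells at 3 months. Zfp804b was at 578 CPM (475 to 697) in the control and 1733 (1620 to 1852) in the mutant, and Dab1 at 329 (252 to 421) and 796 (720 to 878). Neither the shares of cells that met the rule nor the Tox ratio were corrected for this, and its part in them was not tested. In other cartilage at 3 months the ratio was 4.71 (2.23 to 10.3), on 20 against 13 UMIs in 203 and 511 cells, with 23.2% of genes at least 1.5-fold apart, but both levels rest on shares of cells below the pooled limit for free RNA given above. At 12-16 months other cartilage had 2 Tox UMIs under each label, both under the limit of 3 counts, so no fold is given.

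In bone/stroma cells the ratio was 10.7 (5.59 to 22.8) at 3 months, with 56.6% of genes at least 1.5-fold apart, and 3.85 (1.30 to 15.4) at 12-16 months, with 39.1%. Blood cells moved with the 3-month value. The cells had been sorted against CD11b, CD31 and CD45, yet 23 of the 39 bone/stroma cells of the 3-month mutant had a UMI of Ptprc, which encodes CD45, against 1 of 44 in the 3-month control, 2 of 26 in the 12-16-month control and 7 of 83 in the 12-16-month mutant. In those 23 cells 7 of 11 T and NK cell markers were detected, led by Nkg7 with 255 UMIs in 13 cells, whereas Cd3e was at 0, and all 6 myeloid markers were. Prtn3 and Mpo, myeloid granule genes outside the marker lists, had more, with 2437 UMIs in 16 of the cells and 2384 in 13. The 23 cells held 108 of the 117 Tox UMIs, at 160 CPM (132 to 194), and the cell with the most Tox had 33. Which type of blood cell held Tox was not tested. Without cells with a Ptprc UMI, Tox was 12.8 CPM in the 3-month control and 47.6 (21.8 to 90.4) in the 3-month mutant, a ratio of 3.73 (1.34 to 10.2) on 9 UMIs in 2 cells. When all cells with markers of other cell types were removed, the log2 ratio at 3 months was 1.60 with an interval from -0.03 to 3.14, which includes no difference. At 12-16 months the ratio without cells with a Ptprc UMI was 9.06 (1.36 to 385), on 13 against 1 UMIs. Without the cell with the most Tox UMIs in each sum, the log2 ratio of the whole class at 12-16 months moved from 1.94 to 3.45, on 16 against 1 UMIs.

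The summed T and NK cell markers were at 382.9 CPM in bone/stroma cells of the 3-month mutant, of which Nkg7 alone was 296 CPM, and 10.2 to 66.0 CPM in the other 3 libraries. In hypertrophic cells the summed markers were at 0 to 3.39 CPM over the 4 libraries, and Ptprc was at 0 in every endplate and hypertrophic cell. Whether free RNA from blood cells entered the Tox counts there was not tested. Over the 4 libraries, cells with a Ptprc UMI were split at 5 T and NK marker UMIs. Tox was at 296 CPM (246 to 354) in the 17 cells with 5 or more. It was at 60.9 (45.5 to 79.8) in the other 70. These intervals treat clumped UMIs as independent. The 17 cells held 121 Tox UMIs in 5 cells, and the other 70 held 52 in 12. In the 3-month mutant 4 of 11 cells with 5 or more marker UMIs had Tox, with 118 UMIs. The highest of these cells held 48. None of 5 cells with 5 or more marker UMIs in the 12-16-month mutant had Tox. Whether the cells picked by this marker count were T, NK or myeloid cells was not tested.

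**Figure D5:**
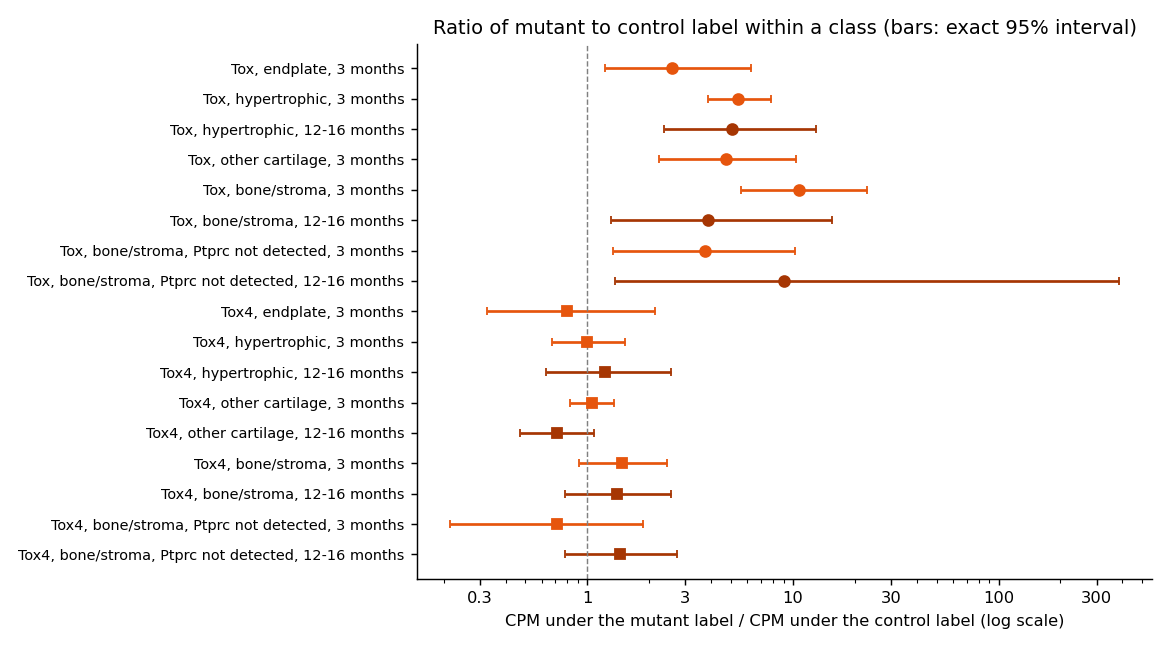
Ratio of the CPM under the mutant label to the control label (x axis, logarithmic) for Tox (circles) and Tox4 (squares) in each class at 3 months (orange) and 12-16 months (brown), with exact 95% intervals; the dashed line is a ratio of 1. All 8 Tox intervals lie above 1 and all 9 Tox4 intervals include it. The ratios without cells with a Ptprc UMI reuse bone/stroma cells, and other cartilage levels of Tox are not read as expression. In the whole classes drawn, 23.2% (other cartilage, 3 months) to 56.6% (bone/stroma, 3 months) of all genes were at least 1.5-fold apart. The bone/stroma ratio of Tox at 3 months fell from 10.7 to 3.73 without cells with a Ptprc UMI.

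With age, Tox in hypertrophic cells was lower in both labels. From 3 to 12-16 months the ratio was 0.447 (0.168 to 1.02) for the control label, on 7 against 35 UMIs, and 0.416 (0.334 to 0.514) under the mutant label, on 101 against 641. The control interval includes 1. In the same sums 37.8% of genes were at least 1.5-fold apart under the control label and 32.9% under the mutant label. These ratios use the same 4 libraries as the label ratios and are not independent of them. In bone/stroma cells of the mutant label the ratio was 0.160 (0.0953 to 0.256) with all cells and 0.306 (0.121 to 0.812) without cells with a Ptprc UMI.

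Tox4 was counted in all classes and varied less than Tox. In hypertrophic cells it was 37.3 CPM (25.7 to 52.4) in the 3-month control, 37.1 (30.5 to 44.7) in the 3-month mutant, 30.3 (15.7 to 52.9) in the 12-16-month control and 37.1 (26.8 to 50.2) in the 12-16-month mutant. In other cartilage it was 36.2 CPM (31.9 to 40.8), 38.3 (30.8 to 47.0), 48.2 (35.0 to 64.8) and 34.2 (25.9 to 44.3) in the same order. The intervals of all these sums overlapped. The ratio of mutant to control label was 0.996 (0.670 to 1.52) in hypertrophic cells at 3 months and 1.22 (0.633 to 2.56) at 12-16 months, and in other cartilage 1.06 (0.824 to 1.35) and 0.709 (0.470 to 1.08). The last was in a comparison in which 23.7% of genes were at least 1.5-fold apart. In bone/stroma cells the ratios were 1.48 (0.909 to 2.43) and 1.39 (0.776 to 2.56), and in endplate cells at 3 months 0.795 (0.325 to 2.13). All of these intervals include 1, and differences up to their bounds were not detectable at this depth. The hypertrophic value at 3 months depended on the class rule, since among cells of the hypertrophic rule alone the log2 ratio was 1.07 (0.02 to 2.26), on 33 against 10 UMIs. Between classes within a library, Tox4 in hypertrophic cells was 0.681 of the bone/stroma level in the 3-month mutant (0.480 to 0.979), and bone/stroma was 0.554 of other cartilage in the 12-16-month control (0.306 to 0.970). Thinned to 5000 UMIs, 12.6% to 23.0% of cells had a Tox4 UMI in the 3 larger classes, without a fixed order of the classes.

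Tox3 was rare, and in the 3-month mutant all of its cells had the endplate genes. It had 26 UMIs in 13 cells over all libraries, all 13 with Sox9. Of these UMIs 21 were in 9 cells with 3 or more UMIs over Zfp804b and Dab1, a group of 236 cells. The 3-month mutant gave 18 of the 21 UMIs, in 7 of its 7 Tox3 cells, and 143 of the 236 cells. In the 3-month control 0 of 1 Tox3 cell was of that kind, in the 12-16-month control 1 of 2 and in the 12-16-month mutant 1 of 3. In the 3-month mutant it had 12 UMIs in 5 of 38 endplate cells (23.8 CPM, 12.3 to 41.6), 6 UMIs in 2 of 136 hypertrophic cells (2.01 CPM, 0.736 to 4.37) and none in the 203 other cartilage cells, where 3 UMIs would be 1.28 CPM. Taking those 3 UMIs for the 0, endplate cells were 18.7-fold above other cartilage in that library, with an exact interval from 13.0 upward on the counted 12 against 0 UMIs, and hypertrophic cells were at 0.0843 of the endplate level (0.0259 to 0.243). The share of 2 of 136 hypertrophic cells lies below the pooled limit of 6.38% for free RNA, so that level is not read as expression. In CPM, the order of endplate and hypertrophic cells was opposite to that of Tox, which was 1.96-fold (1.49 to 2.64) higher in hypertrophic than in endplate cells of the same library. In the 3-month control the Tox level, given above, was the higher in endplate cells, with overlapping intervals. The shares of cells with Tox were alike over the pooled libraries, at 49.2% of 59 endplate and 48.2% of 245 hypertrophic cells. In the 3-month control Tox3 had 0 UMIs in 14 endplate cells and 1 in 511 other cartilage cells. For those 14 cells 3 UMIs would be 15.9 CPM, which lies within the interval of the mutant level, so no fold between labels is given. At 12-16 months Tox3 had 3 UMIs in 2 hypertrophic cells of the control, and in the mutant 2 in 1 endplate cell, 1 in a hypertrophic cell and 1 in a bone/stroma cell, too few for a fold.

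Tox2 was not counted in any endplate or hypertrophic cell, at a depth at which 3 UMIs would be 3.39 CPM in the hypertrophic cells of the 3-month control, 1.00 in the 3-month mutant, 7.58 in the 12-16-month control and 2.65 in the 12-16-month mutant. Of its 17 UMIs in 14 cells, 12 UMIs were in 9 cells with at least 5 Acta2 UMIs, a marker of smooth muscle and mural cells. Cells of that kind outside the 4 classes had 21.1 CPM (2.55 to 76.1) of Tox2 in the 3-month control, 23.1 (7.50 to 53.9) in the 3-month mutant and 25.7 (7.0 to 65.7) in the 12-16-month mutant, on 2, 5 and 4 UMIs, and none in the 2 such cells of the 12-16-month control. In other cartilage it had 3 UMIs in the 3-month control and none in the other 3 libraries. The 3 levels overlapped, and Tox had no UMI in these 47 cells. Tox2 and Tox were not counted in the same cell in any library.

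Tox and Tox3 were counted together in 8 of the 13 Tox3 cells. In cells that met either rule 147 of 304 had Tox and 11 had Tox3, and 8 had both. Tox and Tox4 were both counted in 71 of these 304 cells, of 147 with Tox and 141 with Tox4. Tox3 and Tox4 were counted together in 2.

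The genes whose level was most like that of Tox were found by Pearson correlation of log2(CPM + 10) over the 16 sums of 4 classes and 4 libraries, among genes with at least 100 UMIs. The sums share libraries and depth, so the values are a description. The 10 highest were Mccc2 (r = 0.87), Smyd3, Baz2b, Arhgap26, Mtmr3, Rsrp1, Vps13b, Ttc7b, Dyrk1a and Sik3 (r = 0.83). Of the genes of the class rules, Dab1 ranked 434th (r = 0.64), Prkg2 844th (0.57), Zfp804b 1204th (0.53), Ihh 1332nd (0.51) and Panx3 2006th (0.45). Kcnd2, which is not a gene of the rules, ranked 323rd (0.66). Without the sum made of a single cell only 3 of the 10 genes remained. Tox2 and Tox3 had too few UMIs for such a ranking.

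Partners and relatives of the family were counted from lists in full. Of 27 other HMG-box genes, 21 had enough UMIs for the comparison of hypertrophic cells with other cartilage, and 2 were at least 2-fold higher in all 4 libraries, Lef1, a factor of the Wnt pathway, and Sox6, a factor of the cartilage program. Of all genes tested 5.18% were, so nothing particular to this list is read from 2 of 21. Lef1 was at 127, 30.8, 119 and 102 CPM in hypertrophic cells and at 3.89, 2.55, 8.77 and 0.600 CPM in other cartilage. Sox6 was at 827, 1310, 1096 and 917 CPM against 401, 332, 273 and 248 CPM. None was lower, and the median log2 ratio of the list was 0.31, against 0.10 over all genes tested. Between labels, 1 of 22 was at least 1.5-fold lower at both ages, Hmg20b, and none was higher. Over all genes 1.57% were lower in this way (127 of 8104) and 3.10% higher (251 of 8104), so such a count is near the share over all genes.

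Of the 14 calcineurin, NFAT and NR4A genes, which act upstream of TOX or beside it in T cells, 11 could be compared. None was at least 2-fold higher in hypertrophic cells in all 4 libraries and 3 were lower, namely Rcan1, a feedback inhibitor of calcineurin, and the nuclear receptors Nr4a1 and Nr4a2. Rcan1 was at 18.1, 9.70, 5.05 and 10.6 CPM in hypertrophic cells and at 149, 108, 41.7 and 59.4 CPM in other cartilage. The list's median log2 ratio between these classes was 0.24. Over all genes 6.37% (486 of 7628) were lower in this way. Between labels none of 10 was at least 1.5-fold apart in the same direction at both ages, and the list's median log2 ratios were 0.10 at 3 months and -0.12 at 12-16 months, against 0.03 and 0.00 over all genes. At the shares over all genes given above, a list of this size may hold none. None of the 5 PTW/PP1 genes was past either fold. Of the 4 CREB and CITED genes, 3 could be compared between classes, Cited1 having too few UMIs, and all 4 between labels, and none of those compared was past the fold. The median log2 ratios between the classes were -0.14 and -0.02. Among 3 nuclear long RNAs, Neat1 was at least 2-fold higher in hypertrophic cells in all 4 libraries, and none was past the fold between labels at both ages. Between labels in hypertrophic cells, the log2 ratios at 3 and 12-16 months were -0.25 and -0.35 for Malat1, -0.06 and 0.32 for Neat1 and -0.24 and -0.30 for Meg3.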

How the data were processed

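Mouse spine cells were measured with 10x Chromium 3′ single-cell RNA-seq in 4 libraries. The authors sorted tdTom+ cells and deposited whole-number UMI counts per gene and cell, made with Cell Ranger 8.0.0 on mm10 according to the file headers and the submitters' processing notes; strand and intron settings are not given in the sources used here. From these counts, cells were filtered, classed by UMI rules and summed per class and library, and levels are given per 1000000 UMIs (CPM). The sums held 18629 to 7192075 UMIs, so 3 UMIs correspond to 161 CPM in the smallest and 0.417 in the largest. Doublets were not removed from the main values; Scrublet (scanpy 1.11.5, expected rate 6%) called 0 to 8 cells per library, and an alternative left them out. Its score threshold was fixed at 0.25 after seeing the data, since the automatic threshold of the 3-month control changed with rounding error. TMM factors came from edgeR 4.0.16, and intervals from scipy 1.17.1. Genes compared over a whole table had at least 20 UMIs over the compared sums. Sequences were read from GENCODE vM21 (GRCm38). Interval and thinning code was tested on simulated data. Named genes were the members, the genes of the rules, the most like genes and list genes past a fold in all 4 libraries or at both ages. Other genes named were fixed cell type markers, the 3 nuclear long RNAs, a list gene that could not be compared, genes overlapping a member, and Cadm1, Mamdc2 and Robo2, chosen after their values were seen. Prtn3 and Mpo were named from outside the lists with their values known. The genes most like Tox4 are not reported here. The members and lists were chosen with earlier results of these data known.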

Additional observations from a re-analysis of the deposited data

Results flagged for a closer look

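Tox in blood cells outside the 4 classes (a Ptprc UMI or at least 10 haemoglobin UMIs) was flagged because the comparisons by class did not use these cells and the level was above that of the control library of the same age. It was 219.5 CPM (162 to 291) in the 22 such cells of the 3-month mutant, on 48 UMIs that were all in 1 cell, and 33.8 CPM (0.855 to 188), on 1 UMI, in the 18 such cells of the 3-month control. The ratio was 6.50 (1.11 to 262). In the blood cells of the 3-month mutant 8 of the 11 T and NK cell markers were detected, against 2 of 11 in those of the control, which held 29607 UMIs (median 1182.5 per cell) against 218660 (median 9749) in the mutant, so the detection counts are not compared at equal depth.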

How the results depend on the processing

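The 12 Tox ratios between classes or labels that had a value were recomputed under other class rules, filters and scalings, some of them chosen after seeing the data, giving 128 values, all in the direction first reported (log2 1.27 to 6.99), of which 124 lay within the first interval. The log2 ratio of mutant to control label in endplate cells at 3 months moved from 1.36 to 2.77 when cells of both rules counted as endplate. That in bone/stroma cells at 3 months moved from 3.41 to 1.60 when cells with markers of other types were removed (interval -0.03 to 3.14) and to 1.90 without cells with a Ptprc UMI. Endplate over other cartilage in the 3-month mutant moved from 3.68 to 4.55 when hypertrophic cells were pooled with endplate cells. Without the cell with the most Tox UMIs, the label ratios in hypertrophic cells were 2.86 at 3 months and 3.18 at 12-16 months, and the latter then rested on 3 control UMIs. Of 75 recomputed Tox4 label values 3 lay outside the first interval, 2 of them for hypertrophic cells without those of both rules (1.07). Of the 10 genes most like Tox, 8 remained with log2(CPM + 50) and 3 by rank correlation. Endplate cells at 12-16 months, and the label ratio of other cartilage at that age, gave no value because the sums held 3 UMIs or fewer. The 8.06-fold ratio of hypertrophic cells to other cartilage in the 12-16-month control also had no value, for that reason, when cells of both rules were counted as endplate or left out, and without the cell with the most Tox UMIs. No paired analysis was possible because each condition had 1 library. Few UMIs limit the values of Tox2, Tox3, the 12-16-month control and the older endplate cells.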
